A study of Mus musculus with 12 samples.

Results

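The NRF2 antioxidant pathway and the NADPH oxidase Nox4 were examined at the RNA level in mouse bone marrow-derived mesenchymal stromal cells (MSCs) exposed to A1. The 10 genes were chosen by name: Nfe2l2 (which encodes NRF2), Keap1, Hmox1, Nqo1, Gclc, Gclm, Txnrd1, Srxn1, Gsr and Nox4. They are 10 of the 55487 genes listed in the deposited count table, and all 10 were among the 11314 protein-coding genes that passed the filter on low counts.

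NRF2 is a transcription factor that the adaptor KEAP1 hands over for degradation in resting cells. Oxidants and electrophiles modify KEAP1, NRF2 then accumulates, pairs with a small MAF protein and binds antioxidant response elements (AREs) near genes for glutathione synthesis, thioredoxin recycling, quinone reduction and heme breakdown. Because much of this control acts on the NRF2 protein, the RNA of its targets is the usual transcript-level readout of the pathway. NOX4 belongs to the NADPH oxidase (NOX) family, whose members make superoxide or hydrogen peroxide. NOX4 requires the membrane partner p22phox, encoded by Cyba, and is regarded as constitutively active, without the cytosolic organizers that other family members need.

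The MSCs came from C57BL/6 wild-type mice and formed 3 groups of 4 samples. Control MSCs were untreated, the A1 group received 50 μM A1 for 6 h, and the A1 + OVA group received 50 μM A1 together with 1 mg/mL ovalbumin (OVA), the main protein of egg white, for 6 h. A1 is a variant of the Accum molecule in which cholic acid, a bile acid, is joined to a nuclear localization signal. The study measured reactive oxygen species and used NOX inhibitors in A1-treated MSCs, and the RNA comparison addresses how the cells' transcripts responded. By the study's methods, the cells were flushed from the femurs of young female mice, then expanded over several passages and frozen before use, so that the samples describe cultured cells. The study's methods name no mock treatment of the control samples for RNA, so that A1 and the handling that came with it cannot be told apart. There was no group with OVA alone. The labels also name insulin in the medium of the A1 + OVA group, so that OVA and insulin cannot be told apart. The labels do not say whether the 4 samples of a group came from separate cultures or animals, and p-values then measure only the spread between these samples, which may be technical. In RNA from whole cultures, fewer cells of one kind and less RNA per cell cannot be told apart.

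Between 13702348 and 16881995 counts were assigned to genes per sample, and the A1 samples were the shallowest. Levels are given as CPM, the usual depth-normalized read count, over the tested genes and after TMM scaling, with the mean ± SD of 4 samples. Of 13 MSC markers, 10 reached a mean of 1 CPM in every group, and the 13 together summed to 13646 to 14394 CPM in control samples, 11498 to 12015 CPM with A1 and 11682 to 12101 CPM with A1 + OVA. The markers went both ways: with A1, Cxcl12 fell from 3910 to 1514 CPM in the mean, Pdgfra from 247 to 125 CPM and Vcam1 from 226 to 117 CPM, while Cd44 rose from 175 to 458 CPM and Itgb1 from 1451 to 2225 CPM. Thy1, Nt5e and Lepr stayed below a mean of 1 CPM. The 10 leukocyte markers summed to 9.47 to 10.5 CPM in control samples, 12.1 to 14.7 CPM with A1 and 10.7 to 13.2 CPM with A1 + OVA, with Cd14 and Cd68 the only ones at a mean of 1 CPM or more and Tyrobp at 0 counts in all 12 samples. The 5 endothelial markers summed to at most 0.916 CPM in any sample. The 6 erythroid, B cell and adipocyte markers summed to 1.69 to 3.16 CPM in control samples, 0.726 to 1.07 CPM with A1 and 0.66 to 1.23 CPM with A1 + OVA. Among them, the adipocyte gene Adipoq fell by 1.71 on the log2 scale with A1 (edgeR, adjusted p = 0.000148) and by 1.67 with A1 + OVA (adjusted p = 0.000135). The part of these marker levels in the results below was not tested.

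The promoters of the genes were searched for the core letters of an ARE, TGACNNNGC on either strand, and for TGANTCA, a palindrome bound by AP-1 and by small MAF heterodimers, which is a description of the letters and not of binding. RefSeq promoter windows for GRCm38.p6, from 250 bases before to 50 bases after a transcription start, were given for 7 of the 10 genes, in 9 windows, since Txnrd1 has 3 starts. Hmox1, Gclc and Gsr have no window in the table used here. The ARE core occurred in 4 of the 9 windows, each of a different gene, against 12.4% of all 32851 windows and 14.3% of the 11487 windows of tested genes. For Keap1, Nqo1, Nox4 and the other 2 starts of Txnrd1, neither motif was found in the window, which says nothing about sites further away. The match in Nfe2l2 lies 240 bases before the start, the match in Gclm 134 bases before it, and the match in Txnrd1 92 bases before one of its starts. In Srxn1 the only ARE core lies after the start, and 2 copies of TGANTCA, which 7.81% of all windows hold, lie 102 and 45 bases before it. The 250 bases before the start are shown for these 4 genes because their windows held a motif match. All 4 were called higher with both treatments, and so were Hmox1, Gclc and Gsr, which have no window. They are written 5′ to 3′ on the gene's own strand, with capitals for the matched motif, which is the ARE core in the first 3 and TGANTCA in Srxn1. The windows are chr2:75704664-75704913 on the minus strand for Nfe2l2, and on the plus strand chr3:122245307-122245556 for Gclm, chr10:82858956-82859205 for Txnrd1 and chr2:152105274-152105523 for Srxn1.
Nfe2l2: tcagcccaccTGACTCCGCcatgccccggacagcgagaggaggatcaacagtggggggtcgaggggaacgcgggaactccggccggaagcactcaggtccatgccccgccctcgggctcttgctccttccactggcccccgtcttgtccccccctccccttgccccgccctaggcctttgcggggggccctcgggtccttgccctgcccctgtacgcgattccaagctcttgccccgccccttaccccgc
Gclm: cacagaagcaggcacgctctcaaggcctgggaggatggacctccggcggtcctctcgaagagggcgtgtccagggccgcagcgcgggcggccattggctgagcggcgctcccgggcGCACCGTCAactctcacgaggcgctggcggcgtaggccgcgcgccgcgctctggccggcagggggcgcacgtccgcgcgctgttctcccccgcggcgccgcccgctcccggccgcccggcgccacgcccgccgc
Txnrd1: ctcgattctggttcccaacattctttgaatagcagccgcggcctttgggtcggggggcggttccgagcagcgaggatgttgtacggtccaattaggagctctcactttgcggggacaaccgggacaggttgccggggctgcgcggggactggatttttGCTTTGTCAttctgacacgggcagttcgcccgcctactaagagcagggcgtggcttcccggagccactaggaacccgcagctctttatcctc
Srxn1: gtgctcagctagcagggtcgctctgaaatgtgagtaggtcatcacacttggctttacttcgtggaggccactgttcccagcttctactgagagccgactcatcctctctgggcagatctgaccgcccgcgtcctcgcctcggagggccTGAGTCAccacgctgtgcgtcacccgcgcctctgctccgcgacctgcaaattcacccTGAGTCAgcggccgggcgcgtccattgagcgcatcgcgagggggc

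The first comparison, A1 against control, asked how the pathway's transcripts stood after 6 h of A1. Of the 10 genes, 7 rose with A1: Nfe2l2 itself, both subunits of the glutathione-building enzyme (Gclc, Gclm), the thioredoxin and peroxiredoxin recycling enzymes Txnrd1 and Srxn1, the glutathione-recycling enzyme Gsr, and Hmox1. The largest increases were those of Txnrd1, 1.97-fold, and Gsr, 1.73-fold, and the other 5 rose by 0.25 to 0.45 on the log2 scale. Keap1, Nqo1 and Nox4 did not pass the test, and 0 of the 10 were called lower, with Nox4 at an adjusted p of 0.0787 and Keap1 at 0.12, and 0 also at an unadjusted p under 0.05 and by DESeq2. Genes were called at an adjusted p-value under 0.05 in edgeR's quasi-likelihood test, which all adjusted p-values below refer to, and 31.7% of all tested genes were called higher and 31.1% lower by the same rule. Called genes whose log2 fold change was 0.5 or more in size are termed DEGs, and Txnrd1 and Gsr were the only DEGs among the 10, where 9.41% of all tested genes were DEGs in the direction of an increase. The median log2 fold change was 0.31 over the 10 genes and -0.0017 over all tested genes.

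**Figure D1:**
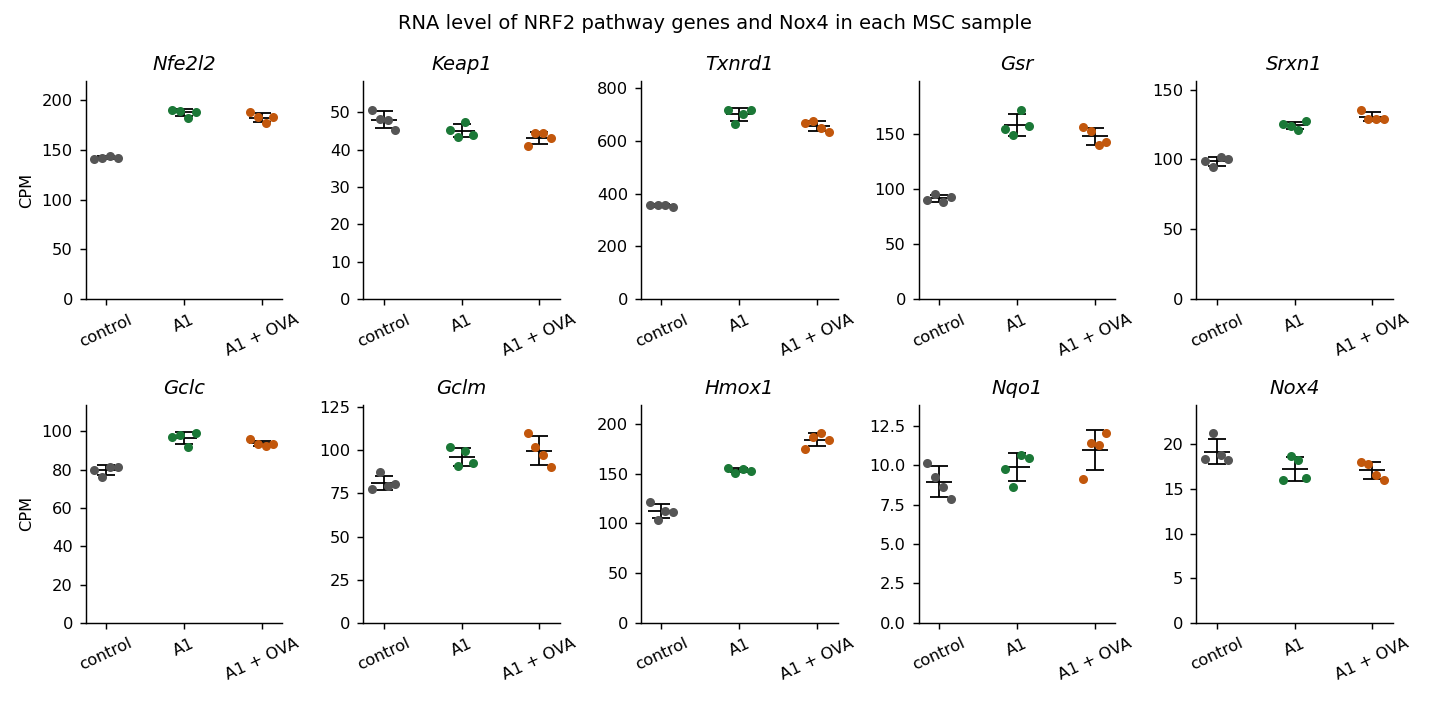
CPM of the 10 genes in each of the 12 samples (points) with the mean and SD of each group (bars), each gene on its own axis starting at 0. Txnrd1 lies between 349 and 358 CPM in the control samples and between 634 and 718 CPM in the treated ones, while Nox4 and Nqo1 show overlapping points between control and A1.

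The transcript of the regulator rose while that of its inhibitor did not rise. Nfe2l2 (ENSMUSG00000015839, GRCm38 chr2:75675513-75704641, minus strand) was at 141, 142, 144 and 142 CPM in the control samples, 191, 189, 183 and 188 CPM with A1, and 188, 183, 177 and 183 CPM with A1 + OVA. All 8 treated samples lay above all 4 control samples, and the 2 treatments overlapped. The increase was 0.40 ± 0.0341 (log2 fold change ± SE, adjusted p = 1.4e-09) with A1 and 0.36 ± 0.034 (adjusted p = 8.15e-09) with A1 + OVA.

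Keap1 (ENSMUSG00000003308, chr9:21229730-21239361, minus strand), which holds NRF2 in the cytoplasm and presents it for ubiquitination, was at 50.7, 48.1, 47.9 and 45.1 CPM in control samples, 45.3, 43.5, 47.4 and 44.0 CPM with A1, and 41.0, 44.4, 44.4 and 43.1 CPM with A1 + OVA. The A1 samples overlapped the control samples, and the log2 fold change of -0.09 had a 95% interval from -0.19 to 0.01 (adjusted p = 0.12). With A1 + OVA, all 4 samples lay below all 4 control samples, and Keap1 fell by 0.15 ± 0.0494 on the log2 scale (adjusted p = 0.0134). Upper-quartile normalization also put Keap1 past the threshold with A1, at a log2 fold change of -0.12 (adjusted p = 0.0458). Both transcripts were read in the same libraries, and the ratio of Nfe2l2 counts to Keap1 counts was 2.77 to 3.14 in the control samples, 3.85 to 4.35 with A1 and 3.98 to 4.58 with A1 + OVA. The ratio in every treated sample was above that in every control sample, which follows from the levels above and is not a separate result.

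Thioredoxin recycling held the member with the largest change. Txnrd1 (ENSMUSG00000020250, chr10:82833951-82897712, plus strand), whose promoter sequence is given above, encodes the cytosolic selenoenzyme that passes electrons from NADPH to thioredoxin. It was at 355, 358, 357 and 349 CPM in control samples, 718, 664, 700 and 716 CPM with A1, and 668, 674, 649 and 634 CPM with A1 + OVA. The 8 treated samples stood well apart from the 4 control samples. Txnrd1 rose by 0.98 ± 0.0364 on the log2 scale with A1 (adjusted p = 1.46e-15) and by 0.89 ± 0.0363 with A1 + OVA (adjusted p = 8.46e-15), and the difference between the treatments did not pass the test (adjusted p = 0.0979).

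Srxn1 (ENSMUSG00000032802, chr2:152105516-152111376, plus strand) encodes sulfiredoxin, which restores over-oxidized peroxiredoxins. It was at 98.7, 94.5, 102 and 100 CPM in control samples, 126, 124, 121 and 127 CPM with A1, and 136, 129, 129 and 129 CPM with A1 + OVA. The 3 groups did not overlap, although the A1 + OVA samples were only just above the A1 samples. The log2 fold change was 0.33 ± 0.0372 with A1 (adjusted p = 9.74e-08) and 0.40 ± 0.0369 with A1 + OVA (adjusted p = 5.19e-09).

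Genes of glutathione synthesis and recycling rose to different extents. Gsr (ENSMUSG00000031584, chr8:33652523-33698163, plus strand) encodes glutathione reductase, which returns oxidized glutathione to its reduced form. Its level was 89.7, 95.3, 88.5 and 93.2 CPM in control samples, 154, 149, 172 and 157 CPM with A1, and 156, 153, 140 and 143 CPM with A1 + OVA. Treated and control samples were fully separated while the treatments overlapped. Gsr rose by 0.79 ± 0.0473 on the log2 scale with A1 (adjusted p = 4.05e-12) and by 0.69 ± 0.0472 with A1 + OVA (adjusted p = 4.22e-11).

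Gclc (ENSMUSG00000032350, chr9:77754535-77794485, plus strand) and Gclm (ENSMUSG00000028124, chr3:122245557-122270732, plus strand) encode the catalytic and the modifier subunit of glutamate-cysteine ligase, the rate-limiting enzyme of glutathione synthesis. Gclc was at 79.9, 76.2, 81.2 and 81.5 CPM in control samples, 97.2, 98.0, 92.0 and 99.0 CPM with A1, and 95.7, 93.4, 92.6 and 93.1 CPM with A1 + OVA. Gclm was at 77.7, 87.2, 79.1 and 80.6 CPM in control samples, 102, 91.1, 99.4 and 92.6 CPM with A1, and 110, 102, 97.1 and 90.3 CPM with A1 + OVA. For both subunits, every treated sample lay above every control sample, by a small margin for Gclm, whose exons share 244 of 6291 bases with Gm6061 on the same strand. With A1, Gclc rose by 0.28 ± 0.0389 (adjusted p = 2.56e-06) and Gclm by 0.25 ± 0.0552 (adjusted p = 0.000592) on the log2 scale. With A1 + OVA the log2 fold changes were 0.23 for Gclc (adjusted p = 2.44e-05) and 0.30 for Gclm (adjusted p = 8.42e-05). The ratio of Gclc to Gclm counts was 0.985 ± 0.0744 in control samples, 1.01 ± 0.0777 with A1 and 0.943 ± 0.0673 with A1 + OVA, differences smaller than the spread between samples.

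Hmox1 and Nqo1 are widely used reporters of NRF2 activity, and of the pair only Hmox1 was called with A1. Hmox1 (ENSMUSG00000005413, chr8:75093621-75100589, plus strand) encodes heme oxygenase 1, which breaks heme down to biliverdin, iron and carbon monoxide. It was at 122, 104, 113 and 111 CPM in control samples, 156, 151, 155 and 153 CPM with A1, and 175, 187, 191 and 184 CPM with A1 + OVA. The 3 groups did not overlap, in the order control, A1, A1 + OVA. Hmox1 rose by 0.45 ± 0.0435 on the log2 scale with A1 (1.37-fold, adjusted p = 9.63e-09) and by 0.71 ± 0.043 with A1 + OVA (1.64-fold, adjusted p = 4.96e-12).

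Nqo1 (ENSMUSG00000003849, chr8:107388225-107403206, minus strand) encodes the quinone reductase NQO1 and was a low gene in these cells. It was at 10.1, 9.22, 8.60 and 7.84 CPM in control samples, 9.76, 8.63, 10.6 and 10.5 CPM with A1, and 9.13, 11.4, 11.3 and 12 CPM with A1 + OVA. The samples of all 3 groups overlapped. These levels rest on 113 to 195 counts per sample, and the SD was 9.16% to 11.5% of the mean, the widest relative spread of the 10 genes. With A1 the log2 fold change was 0.14, with a 95% interval from -0.07 to 0.34 (adjusted p = 0.254). With A1 + OVA it was 0.30 ± 0.1 (adjusted p = 0.0155), a call that was lost without control sample 4 (0.24, adjusted p = 0.0618) or without A1 + OVA sample 4 (0.25, adjusted p = 0.0581).

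**Figure D2:**
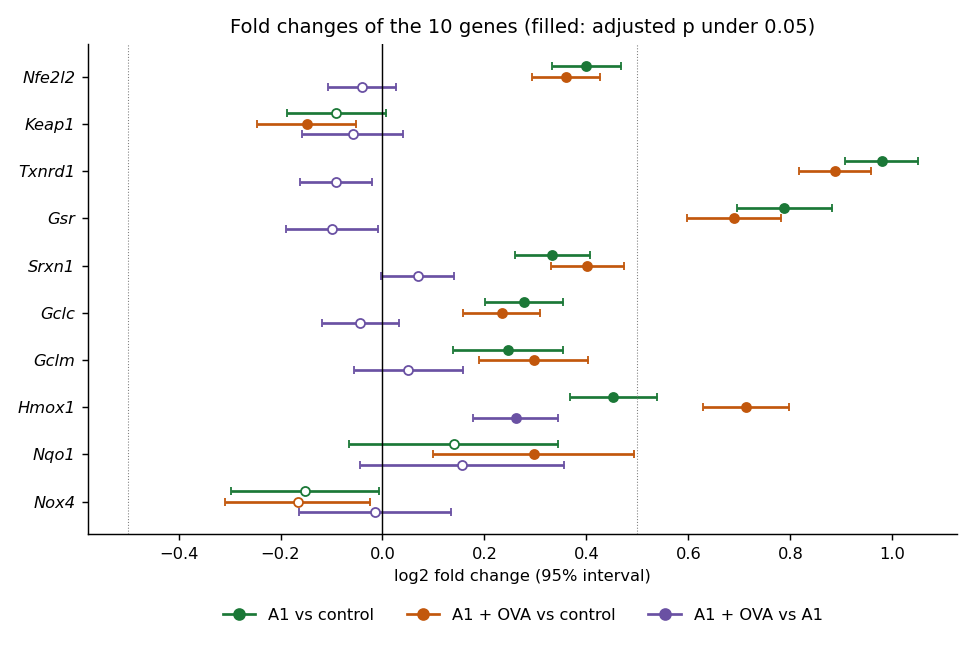
Log2 fold change of each of the 10 genes with its 95% interval (bars) for A1 against control, A1 + OVA against control and A1 + OVA against A1. Filled points have an adjusted p-value under 0.05, and dotted lines mark -0.5 and 0.5. Txnrd1 and Gsr lie beyond 0.5 against control with both treatments, Hmox1 with A1 + OVA, and Hmox1 is the only filled point in A1 + OVA against A1, at 0.26.

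Nox4 did not rise with either treatment. Nox4 (ENSMUSG00000030562, chr7:87246096-87398710, plus strand) was at 18.3, 21.2, 18.8 and 18.2 CPM in control samples, 16.0, 18.6, 18.2 and 16.3 CPM with A1, and 18.0, 17.7, 16.6 and 16.0 CPM with A1 + OVA, from 221 to 359 counts per sample. The A1 samples overlapped the control samples, and the A1 + OVA samples lay just below them. The log2 fold change was -0.15 with A1 (95% interval -0.30 to -0.01, adjusted p = 0.0787) and -0.17 with A1 + OVA (-0.31 to -0.02, adjusted p = 0.0552). With A1 the unadjusted p of edgeR's test was 0.0521, although the normal interval leaves out 0. These values sit close to the threshold, and the adjusted p ranged over the alternatives from 0.0372 to 0.26 with A1 and from 0.03 to 0.2 with A1 + OVA, the log2 fold change being negative in all of them. Nox4 was called lower with A1 after leaving out A1 sample 2 (-0.19, adjusted p = 0.0473) and with upper-quartile scaling (-0.18, adjusted p = 0.0372). With A1 + OVA it was called lower after leaving out control sample 1 or 4, A1 sample 1, 3 or 4, or A1 + OVA sample 1, at log2 fold changes of -0.18 to -0.19 and adjusted p-values from 0.043 to 0.0499. The same held with upper-quartile scaling, RLE scaling, a minimum of 10 counts in each sample, the whole count table and the replicate block. This makes 11 of 20 alternatives.

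In the A1 + OVA against control comparison, 8 of the 10 genes were called higher, where 29.7% of all tested genes were, and Keap1 was called lower, where 27.9% were. Txnrd1, Gsr and Hmox1 were DEGs, all in the direction of an increase, against 8.92% of all tested genes. The median log2 fold change was 0.33 over the 10 genes and 0.0036 over all tested genes. Both comparisons use the same control samples, so that they are not independent of each other. In counts of separation, 7 of the 10 genes had all A1 samples above all control samples, and with A1 + OVA 7 had them above and 2, Keap1 and Nox4, below. Over all tested genes, the groups did not overlap for 54.4% with A1 and 49.4% with A1 + OVA.

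The third comparison, A1 + OVA against A1, asked what differed between the 2 treatments. OVA and the insulin that the labels name cannot be told apart in it. Only Hmox1 was called, as 1 of 10 genes higher and 0 of 10 lower, where 6.05% of all tested genes were called higher and 6.81% lower. At an unadjusted p under 0.05, 2 genes were lower, Txnrd1 and Gsr, and DESeq2 called 0 lower. Hmox1 was higher with A1 + OVA by 0.26 ± 0.0426 on the log2 scale (95% interval 0.18 to 0.34, adjusted p = 0.000344), 1.20-fold. Srxn1 was the other gene whose groups did not overlap, a pattern found in 18.1% of all tested genes, and its log2 fold change was 0.07 (95% interval -0.0032 to 0.14, adjusted p = 0.233). For Nfe2l2, Keap1, Gclc and Gclm, the 95% intervals of the difference reached from -0.16 to 0.16 at most, which leaves room for small differences. The interval was -0.16 to -0.02 for Txnrd1, -0.19 to -0.01 for Gsr, -0.16 to 0.13 for Nox4 and -0.04 to 0.36 for Nqo1, none with an adjusted p-value under 0.05. The ratio of Hmox1 to Txnrd1 counts within a sample was 0.290 to 0.342 in control samples, 0.214 to 0.227 with A1 and 0.262 to 0.294 with A1 + OVA. The A1 samples had the lowest ratios, with no overlap with either of the other groups.

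Levels were also divided by exonic length, taken over all annotated exons of a gene, and the order of the genes differed between groups. The expressed transcript can be shorter than this length, so that levels of different genes compare only roughly. In control samples Hmox1 led with 64.2 ± 4.15 CPM per kb, followed by Txnrd1 with 50.1 ± 0.591 CPM per kb, Nfe2l2 with 37.5 ± 0.366 CPM per kb, Srxn1 with 35.1 ± 1.13 CPM per kb and Gsr with 33.3 ± 1.12 CPM per kb. Of these neighbours, only Srxn1 and Gsr overlapped between samples. With A1, Txnrd1 led with 98.7 ± 3.52 CPM per kb, ahead of Hmox1 with 87.8 ± 1.25 CPM per kb and Gsr with 57.5 ± 3.57 CPM per kb, and no neighbours overlapped. With A1 + OVA, Hmox1 was again first with 105 ± 3.83 CPM per kb and Txnrd1 followed with 92.6 ± 2.57 CPM per kb, while Nfe2l2 and Srxn1 overlapped. Gclc, Gclm, Keap1, Nqo1 and Nox4 held the last 5 places in this order in every group, from 21.2 ± 0.648 CPM per kb for Gclc to 2.26 ± 0.166 CPM per kb for Nox4 in control samples.

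Nox4 was the main transcript of the NADPH oxidase family in all groups. It held 86.1% to 92.2% of the counts of the NOX and DUOX catalytic genes in a sample. Cybb, which encodes the phagocyte catalytic subunit NOX2, had 14 to 51 counts per sample, with 1.90 ± 0.768 CPM in control samples, 1.42 ± 0.407 CPM with A1 and 1.41 ± 0.323 CPM with A1 + OVA, and did not pass the test in either treatment (adjusted p = 0.16 and 0.14). Nox1 had at most 5 counts in any sample, Duox1 8 and Duox2 6, and Nox3 had 0 counts in all samples. These genes lie at or near the limit of detection, which was taken as 3 counts per sample.

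Cyba, the p22phox gene that NOX4 and NOX2 depend on, had 1 count in all 12 samples together, in control sample 2. The file thus lists Cyba at 0 in 11 samples, which allows up to 3 counts in each. In the annotation used here, Cyba (chr8:122424776-122432930, minus strand) shares no exonic base with another gene on its strand, but the newer annotation that the authors counted on was not used here, so that a loss of reads to an overlapping gene was not tested. Of the genes for cytosolic subunits, Ncf1, Ncf4 and Noxa1 had at most 8, 1 and 0 counts in a sample.

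**Figure D3:**
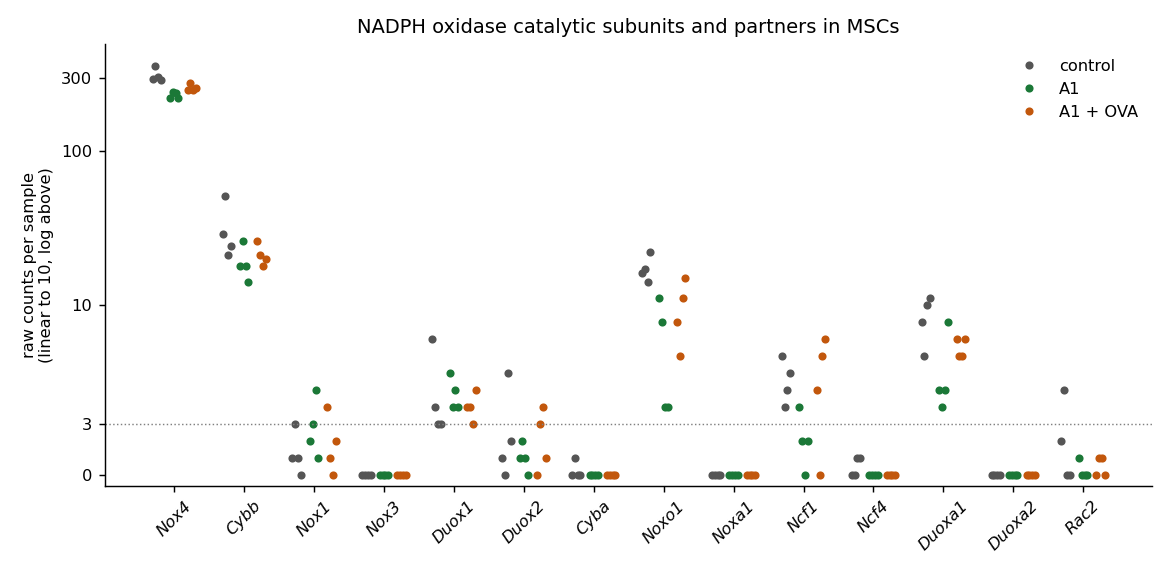
Raw counts per sample of NADPH oxidase catalytic genes and partner genes in the 3 groups of 4 samples, on an axis that is linear to 10 and logarithmic above. The dotted line marks 3 counts. Nox4 has 221 to 359 counts in every sample, Cybb 14 to 51, and Cyba 0 in all samples but one.

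Of the 18 genes on the NADPH oxidase list, 6 passed the filter. Cybc1, which encodes a chaperone of NOX2, and the small GTPase gene Rac1 rose with A1, by 0.17 (adjusted p = 0.00616) and 0.16 (adjusted p = 0.000469) on the log2 scale, while Noxo1 fell by 1.01 (adjusted p = 0.00982) at 4 to 22 counts per sample. With A1 + OVA, only Cybc1 was called, at 0.15 (adjusted p = 0.0139). Over all tested genes, 31.7% were called higher and 31.1% lower with A1, and 29.7% and 27.9% with A1 + OVA. Rac1 was at 459, 470, 455 and 461 CPM in control samples, 514, 515, 529 and 510 CPM with A1, and 476, 482, 444 and 446 CPM with A1 + OVA. The A1 samples stood above both other groups, and Rac1 was lower with A1 + OVA than with A1 by 0.16 on the log2 scale (adjusted p = 0.0048). Noxo1, and the other list genes that the naming rule does not cover, were named after their values were seen.

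The partners and regulators of NRF2 were given by a list of 15 genes, of which 14 were tested. With A1, 5 rose (Maff, Mafk, Pgam5, Mafg and Dpp3) and 5 fell (Rxra, Btrc, Gsk3b, Bach1 and Nfe2l1), and the list median was -0.07. With A1 + OVA, 5 rose and 3 fell, at the same median. These counts are close to the shares over all tested genes, 31.7% higher and 31.1% lower with A1 and 29.7% and 27.9% with A1 + OVA. The small MAF genes, whose products pair with NRF2 on DNA, were all among the risers. Maff was at 14.8, 15.4, 13.7 and 14.9 CPM in control samples, 30.8, 32.7, 33.5 and 29.99 CPM with A1, and 33.8, 34.8, 35.5 and 34.0 CPM with A1 + OVA. All treated samples lay above all control samples, and Maff rose by 1.11 with A1 (adjusted p = 8.37e-13) and by 1.23 with A1 + OVA (adjusted p = 1.16e-13) on the log2 scale. Mafk rose by 0.68 and 0.74, and Mafg by 0.32 and 0.45. Part of a Mafg exon, 124 bases, is shared with Sirt7 on the same strand.

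Bach1, whose product represses Hmox1 by occupying ARE-type sites, fell by 0.18 on the log2 scale with A1 (adjusted p = 0.00336). With A1 + OVA its log2 fold change was -0.11 (adjusted p = 0.0568), and it was called lower without control sample 3 (-0.16, adjusted p = 0.00691), or without A1 sample 1, 3 or 4 or A1 + OVA sample 3 (adjusted p from 0.0405 to 0.0486). It was also called lower with upper-quartile scaling (adjusted p = 0.0234), RLE scaling (0.045), a minimum of 10 counts in each sample (0.0482) and the whole count table (0.0368), which makes 9 of 20 alternatives. Sqstm1, the autophagy receptor p62 that competes with NRF2 for KEAP1, had log2 fold changes of -0.06 (adjusted p = 0.157) and 0.04 (adjusted p = 0.302). Pgam5, a mitochondrial phosphatase bound by KEAP1, rose by 0.58 and 0.56.

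Of 29 other established NRF2 targets, 27 were tested, and 9 rose and 11 fell with A1, with the same counts for A1 + OVA, at list medians of -0.05 and 0.06, where 31.7% of all tested genes were called higher and 31.1% lower with A1, and 29.7% and 27.9% with A1 + OVA. Slc7a11, the cystine importer that feeds glutathione synthesis, was at 4.73 ± 0.409 CPM in control samples, 11.4 ± 1.26 CPM with A1 and 13.5 ± 0.741 CPM with A1 + OVA. It rose by 1.27 (adjusted p = 5.74e-10) and 1.51 (adjusted p = 1.74e-11) on the log2 scale, and A1 + OVA differed from A1 by 0.24 (adjusted p = 0.0744), which passed the threshold without A1 sample 1 (0.31, adjusted p = 0.0318). Idh1, the cytosolic isocitrate dehydrogenase that makes NADPH, changed the most on the list. It was at 311 ± 10.3 CPM in control samples, 103 ± 2.51 CPM with A1 and 108 ± 8.17 CPM with A1 + OVA, and fell by 1.59 and 1.52 on the log2 scale (adjusted p = 2.43e-17 and 5.86e-17). Aldh3a1, an aldehyde dehydrogenase, fell by 0.80 on the log2 scale with A1 + OVA (adjusted p = 1.48e-08) and was at 21.9 ± 1.53 CPM in control samples against 11.2 ± 1.29 CPM with A1 (adjusted p = 1.38e-09).

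**Figure D4:**
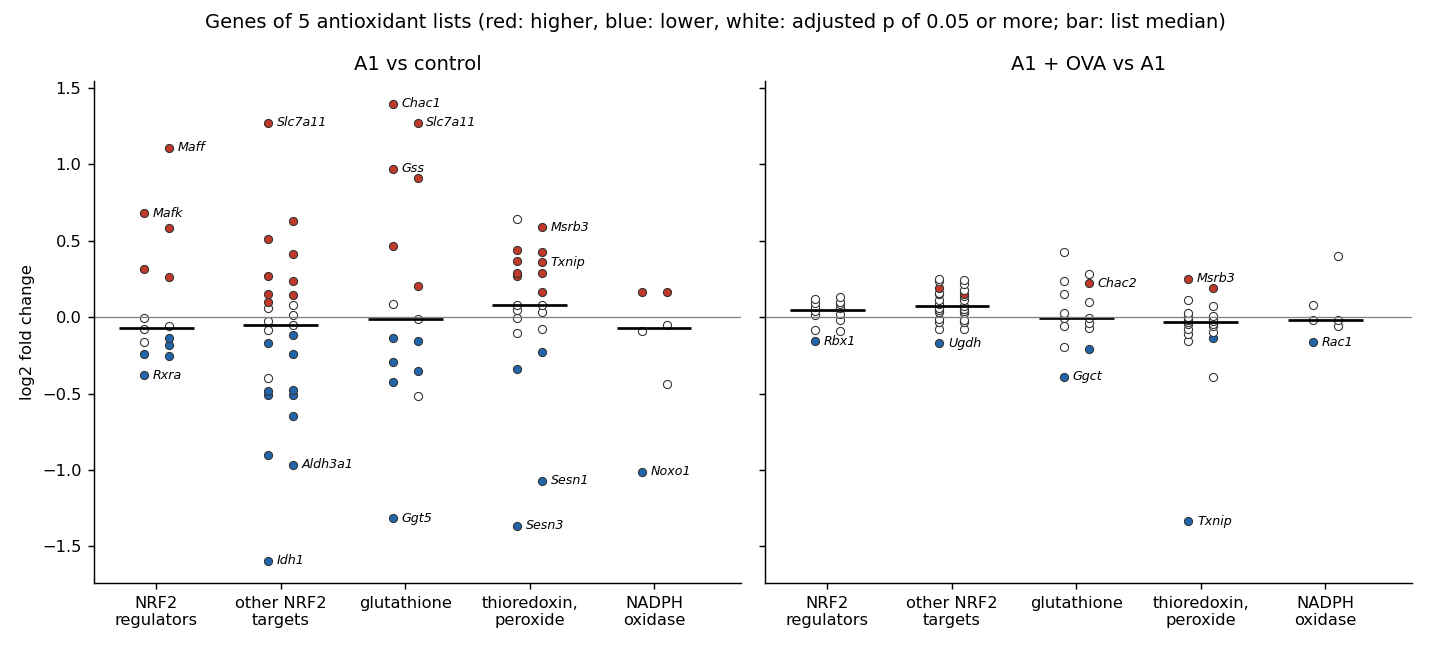
Log2 fold change of every tested gene of 5 antioxidant lists, for A1 against control (left) and A1 + OVA against A1 (right). Red and blue points are genes called higher and lower, white points were not called, and bars mark list medians. Of the 80 tested list genes, 29 were called higher and 27 lower with A1, where 31.7% and 31.1% of all tested genes were. Txnip stands alone at -1.34 in A1 + OVA against A1.

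In glutathione metabolism, 6 of the 15 tested genes rose and 6 fell with A1, at a median of -0.01, against 6 and 4 with A1 + OVA, at -0.09. Over all tested genes, 31.7% were called higher and 31.1% lower with A1, and 29.7% and 27.9% with A1 + OVA. Gss, the synthetase that acts after glutamate-cysteine ligase, was at 27.5 ± 1.66 CPM in control samples, 53.9 ± 2.73 CPM with A1 and 52.4 ± 1.94 CPM with A1 + OVA. It rose by 0.97 (adjusted p = 1.57e-12) and 0.93 (adjusted p = 3.21e-12) on the log2 scale, more than either ligase subunit in these point estimates. Chac1, which degrades glutathione, rose by 1.40 and 1.39, from 7.69 ± 0.614 CPM in control samples to 20.2 ± 0.931 CPM with A1. Ggt5, an extracellular glutathione-cleaving transferase, fell by 1.31 and 1.03.

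Of the 21 genes for thioredoxins, peroxiredoxins and peroxide removal, all were tested, and 9 rose and 4 fell with A1, against 7 and 5 with A1 + OVA. In all, 61.9% of the list was called with A1, against 62.7% of all tested genes. With A1 + OVA it was 57.1% of the list, against 57.6%. Both shares, taken over the 2 directions together, were close to the background. By direction, 31.7% of all tested genes were called higher and 31.1% lower with A1, and 29.7% and 27.9% with A1 + OVA. The list thus held more increases than decreases with A1, which the shares over the 2 directions do not show. Txn1, the thioredoxin that TXNRD1 reduces, rose by 0.27 with A1 (adjusted p = 2.91e-05) and by 0.19 with A1 + OVA (adjusted p = 0.00121). Prdx1, a peroxiredoxin that SRXN1 repairs, had log2 fold changes of 0.08 (adjusted p = 0.11) and 0.07 (adjusted p = 0.177), and passed the threshold in both without control sample 1 (0.11 and 0.10) and, with A1, without A1 sample 2 (0.11). Reads of Txn1 and Prdx1 can be split with near-identical pseudogene copies, which makes their levels uncertain. Sesn3 and Sesn1, which encode sestrins, fell by 1.36 and 1.07 on the log2 scale with A1, and Msrb3, a methionine sulfoxide reductase, rose by 0.59.

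Txnip, which encodes the protein that binds and inhibits thioredoxin, changed in opposite directions with the 2 treatments. It was at 59.2, 60.0, 64.7 and 58.4 CPM in control samples, 77.7, 75.0, 78.8 and 79.8 CPM with A1, and 28.7, 34.6, 28.2 and 31.6 CPM with A1 + OVA. The 3 groups did not overlap, with A1 highest and A1 + OVA lowest. Txnip rose by 0.36 on the log2 scale with A1 (adjusted p = 4.98e-06) and fell by 0.97 with A1 + OVA (adjusted p = 3.96e-12), and the difference between the treatments was -1.34 (adjusted p = 2.42e-12). Its log2 fold change in A1 + OVA against A1 was the largest in size among the 80 tested genes of the 5 lists. In that comparison the lists held 6 genes called higher and 7 called lower, where 6.05% and 6.81% of all tested genes were.

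**Figure D5:**
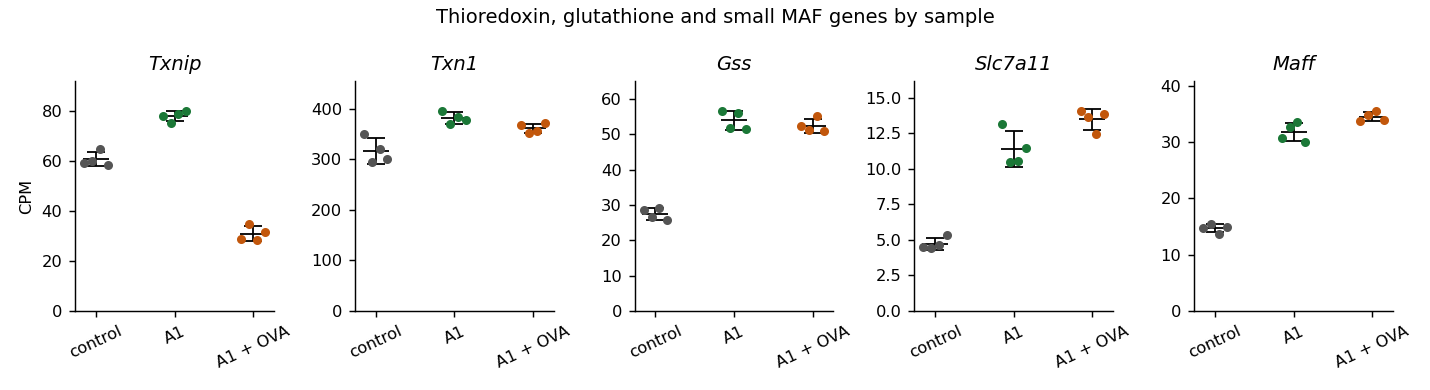
CPM of Txnip, Txn1, Gss, Slc7a11 and Maff in each of the 12 samples (points) with the mean and SD of each group (bars), each gene on its own axis from 0. Gss, Slc7a11 and Maff are higher in all treated samples, while Txnip lies at 75.0 to 79.8 CPM with A1 and at 28.2 to 34.6 CPM with A1 + OVA.

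The genes whose profile over the 12 samples was most like that of Hmox1 were Lrrc32 (Pearson r of log2 CPM 0.99), Endod1 (0.98) and Cnn2 (0.98). Lrrc32, the surface anchor of latent TGF-β, was at 204 ± 9.76 CPM in control samples, 327 ± 9.01 CPM with A1 and 423 ± 20.8 CPM with A1 + OVA, the same order of groups as Hmox1. For Nox4 the most similar genes were Fxr1 (0.93), Vma21 (0.91) and Fbxo11 (0.91). Fxr1 differed little between groups, at 179 ± 4.34 CPM, 169 ± 7.17 CPM and 170 ± 2.47 CPM. The samples share their libraries and fall into 3 groups, and these correlations are given as a description.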

How the data were processed

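RNA was prepared from 12 samples of mouse MSCs in 3 groups of 4, assigned by the sample titles. The authors made strand-specific poly(A) libraries, used STAR 2.7 for alignment of the read pairs to GRCm38 and featureCounts 2.0 for counting, and deposited raw counts per Ensembl gene. Reads shared by overlapping genes could be left out at that step. The authors pooled the libraries for sequencing, and the counts of replicates were kept apart here.

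From the deposited counts, gene names, coordinates and exonic lengths were added from GENCODE M21, which holds 99.53% of the 55487 identifiers. The 11314 protein-coding genes kept by filterByExpr were scaled by TMM and tested in a single model of the 12 samples (edgeR 4.0.16, R 4.3.3), with Benjamini-Hochberg adjustment over all of them. SE was the absolute log2 fold change over the square root of F, and intervals are 95% normal intervals. Log2 CPM used a prior count of 2. Alternatives were DESeq2 1.42.0, upper-quartile and RLE scaling, 2 other filters, the whole count table, fits of the compared groups alone, a log2 threshold of 1, the replicate number as a block, and each sample left out in turn. On simulated counts for A1 against control (11242 genes), edgeR recovered 91% of 1.5-fold and 99% of 2-fold changes, with 11 false calls. The simulation gave all genes the same dispersion and changed only 200 genes, all above a minimum level. Its recovery and false calls therefore do not describe genes with few counts, or a comparison such as this one, in which 62.7% of tested genes were called.

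The 10 genes, the 5 lists and the tests were chosen with earlier results of these data known. All 10 genes are named. From each list, the 3 called genes with the largest change with A1 and an average log2 CPM of at least 1 are named, plus Cyba, Nox1, Cybb, Bach1, Slc7a11, Sqstm1, Mafg, Txn1 and Prdx1, and for Hmox1 and Nox4 the 3 genes with the highest Pearson r. Txnip and Gss were added after their values were seen. A gene of the NADPH oxidase list is not reported here. Counts of replicates differed by 1.92 to 6.87 times counting variance, so that each was treated as a separate sample. The S numbers that end the column names of the deposited counts run in group order, and the headers do not say what they stand for. The number of samples limits the precision.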

Additional observations from a re-analysis of the deposited data

Results flagged for a closer look

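Among 93 groups of 4 samples, for 31 named genes, 5 held a sample whose distance from its nearest neighbour took up more of the group's range than Dixon's 95% limit, and chance gives about 1 in 20. Srxn1 was at 136 CPM in A1 + OVA sample 1 and at 129 CPM in the next sample (ratio of gap to range 0.9297). Cybc1 was at 37.8 CPM in the same sample and at 38.7 CPM in the next (0.9454), a gap of under 1 CPM. Bach1 was at 64.4 CPM in A1 + OVA sample 3 and at 61.1 CPM in the next (0.8293). Sesn3 was at 94.6 CPM in control sample 2 and at 89.7 CPM in the next (0.9662). Prdx1 was at 487 CPM in control sample 1 and at 447 CPM in the next (0.8719), and without that sample its increase passed the threshold with both treatments.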

How the results depend on the processing

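Of 1860 recomputed values of named genes, 1824 kept their side of the threshold, 34 passed it only in the alternative and 2 lost it. In 0 cases did a value that was called in either fit change direction. Some uncalled values near 0 changed sign by less than their SE, such as Nox4 in A1 + OVA against A1 (-0.0542 to 0.0239). With A1, the count of the 10 genes called lower went from 0 to 2 (Keap1 and Nox4) with upper-quartile scaling and lay between 0 and 1 when samples were left out in turn. With A1 + OVA, that count went from 1 to 2, Nox4 being added, with upper-quartile scaling, RLE scaling, a minimum of 10 counts in each sample, the whole count table and the replicate block, and lay between 1 and 2 when samples were left out. The causes were not tested. With the size threshold for DEGs at a log2 fold change of 1, the DEGs went from 2 to 0 with A1 and from 3 to 0 with A1 + OVA, which follows from the threshold. In A1 + OVA against A1, the 5 lists held between 3 and 7 genes called higher, with 3 without A1 sample 2 or 4 or A1 + OVA sample 4. They held between 3 and 7 called lower, with 3 without A1 sample 3 or A1 + OVA sample 3 and 4 without A1 sample 1 or A1 + OVA sample 2 or 4. Upper-quartile scaling moved the median of all tested genes to -0.031 with A1. The deviations of same-numbered samples had a mean r of 0.0215 over 12 pairs, and 4 of 12 samples correlated best with their own number. These values cannot decide whether same-numbered samples share a culture or animal, which the labels do not say. The replicate block gave 7134, 6580 and 1488 calls over all genes against 7098, 6518 and 1455 without it. Cybb, with 14 to 51 counts per sample, and Noxo1, with 4 to 22, rest on few reads.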

Other observations

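NADPH supply and detoxification genes on the list of other NRF2 targets were described by their values after these were seen. Of the genes for NADPH-producing enzymes, G6pdx fell by 0.12 (adjusted p = 0.00686) and Me1 by 0.24 (adjusted p = 1.19e-05) on the log2 scale with A1, as Idh1 did, while Pgd rose by 0.10 (adjusted p = 0.0151). Me1, the cytosolic malic enzyme, was higher with A1 + OVA than with A1 by 0.15 (adjusted p = 0.0121). Among glutathione transferases, Gsta4 fell by 0.90, Mgst1 by 0.65 and Gstm1 by 0.48 with A1, and Gstp1 rose by 0.24, although reads of Gstm1 and Gstp1 can be split with close paralogs. Cat, which encodes catalase, fell by 0.34 with A1 (adjusted p = 1.24e-07) and by 0.15 with A1 + OVA (adjusted p = 0.00212), and the difference between the treatments was 0.19 (adjusted p = 0.00243). With A1, Abcc1, which encodes an exporter of glutathione conjugates, rose by 0.63, and Slc48a1, which encodes a heme transporter, rose by 0.51.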
